A study of Mus musculus with 6 samples.

Results

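DEAD and DEAH box proteins are ATP-dependent enzymes that unwind or remodel RNA, named after a conserved amino acid motif in their helicase core. They were followed here as the mouse genes whose symbols in the deposited count table begin with Ddx or Dhx followed by a number (with at most 1 further letter for Ddx), leaving out the Y-linked Ddx3y. The rule found 52 of 53733 named rows, 36 Ddx and 16 Dhx genes, and used no measured value. As background, DEAD box proteins such as DDX21 and DDX18 act in the nucleolus on precursors of ribosomal RNA, DEAH box proteins such as DHX8 and DHX16 drive steps of the splicing cycle, and other members work in mRNA export, translation, mRNA decay and the sensing of viral RNA. Growing leukaemia cells depend on high output of ribosomes and spliced mRNA, so these enzymes belong to the growth machinery of such cells as well as to their antiviral defence.

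The cells were a mouse acute myeloid leukaemia line made from foetal liver cells with 2 retroviral vectors, 1 expressing the fusion oncogene MLL-AF9 and a luciferase constantly, the other expressing DsRED and FLT3-ITD, in which an internal duplication keeps the receptor kinase FLT3 active, only while doxycycline is given. Immunodeficient NSG mice, whose age the labels do not give, received the cells by tail vein and doxycycline in food and water during 96 h of engraftment. The 3 mice of the ON group then stayed on doxycycline, and the 3 mice of the OFF group were moved to regular food and water for 48 h to deplete FLT3-ITD. MLL-AF9 was therefore present in both groups, and OFF against ON shows which transcripts of leukaemic cells sorted from bone marrow differ once FLT3-ITD has been withdrawn. The OFF mice also lost doxycycline itself, so withdrawal of the drug and of FLT3-ITD cannot be told apart here. Whether the line is 1 clone is not given in the sources used here.

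Each of the 6 libraries came from 1 mouse, and held 8335234 to 9316361 counts, and a single read corresponded to no more than 0.124 CPM (counts scaled for library size). Reads came from the 3' ends of mRNAs, so levels of different genes can be set side by side without division by length. The transgene's own reads were not analysed here; the mouse Flt3 row, which holds the 3' end of the endogenous gene, stood at 5.48 to 5.81 CPM in ON and 5.44 to 9.13 CPM in OFF and does not check the depletion. OFF replicate 3 stood apart from the other OFF libraries on the second principal component (-29.3 against 23.9 and 14.4, on 13.6% of the variance), and rows of the ribosomal RNA locus took 10.1% of its counts against 11.3% to 18.0% elsewhere. On the first component (67.6% of the variance) OFF replicate 1 lay nearest to the ON libraries. It was at 21.4, OFF replicates 2 and 3 at 39.9 and 48.3, and the ON libraries at -37.5 to -34.7. Markers of myeloid cells were abundant, with Hoxa9, a target of MLL fusions, at means of 331 CPM in ON and 350 CPM in OFF, while the progenitor receptor Kit was at most 0.57 CPM in any library. Of 11 tested myeloid leukaemia markers, 7 were higher in OFF and 1 lower, and the mean of the granule enzyme myeloperoxidase (Mpo) was 301 CPM in ON and 803 CPM in OFF. Of 8 erythroid markers 5 could be tested and all 5 were higher in OFF; their summed level was 150 to 212 CPM in ON and 578 to 933 CPM in OFF, mostly alpha and beta globins. Gp1bb was the only tested marker of 6 for megakaryocytes and platelets and was higher in OFF (log2 fold change 0.71), with Pf4 at a mean of 0.479 CPM and Ppbp of 0.0367 CPM in OFF. Markers of stroma and endothelium summed to at most 11.7 CPM and lymphoid markers to at most 4.4 CPM in any library, with Lepr and Cd8a at 0 throughout. The part of these marker changes in the helicase values was not tested. As in any bulk sample, fewer cells that express a gene and less RNA of it per cell cannot be told apart.

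After withdrawal of doxycycline and with it FLT3-ITD, the helicase genes were mostly lower. Of 52 members, 49 passed the filter on low counts, and 25 of these (51.0%) were lower in OFF and 2 (4.08%) higher at an adjusted p below 0.05 by edgeR's quasi-likelihood test, against 17.5% of all 13652 tested rows called lower and 17.3% called higher. The median log2 fold change, OFF minus ON, was -0.32 over the tested members and 0.00 over all tested rows. All 3 OFF values lay below all 3 ON values in 33 members and above them in 3, against 24.5% and 23.8% of all tested rows. Of the 38 members with a mean of at least 10 CPM, 21 were lower (55.3%), against 20.9% of all 8061 tested rows at that level. Without OFF replicate 3 the counts were also 25 lower and 2 higher, but not of the same genes. Ddx24 and Ddx42 lost their calls there, and Ddx39b and Ddx47 were called lower instead. Leaving out any 1 library gave 18 to 26 lower. The DEAD box symbols held 20 lower and 1 higher of 33 tested, and the DEAH box symbols 5 lower and 1 higher of 16; the difference between these families was not tested. Summed over all 52 members, the ON libraries held 3293, 3301 and 3327 CPM and the OFF libraries 2647, 2475 and 2294 CPM. Ddx21 contributed 26.3% and Ddx3x 16.5% of the net fall in that sum, and the 6 most abundant members together held 47.5% of the family's CPM.

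**Figure D1:**
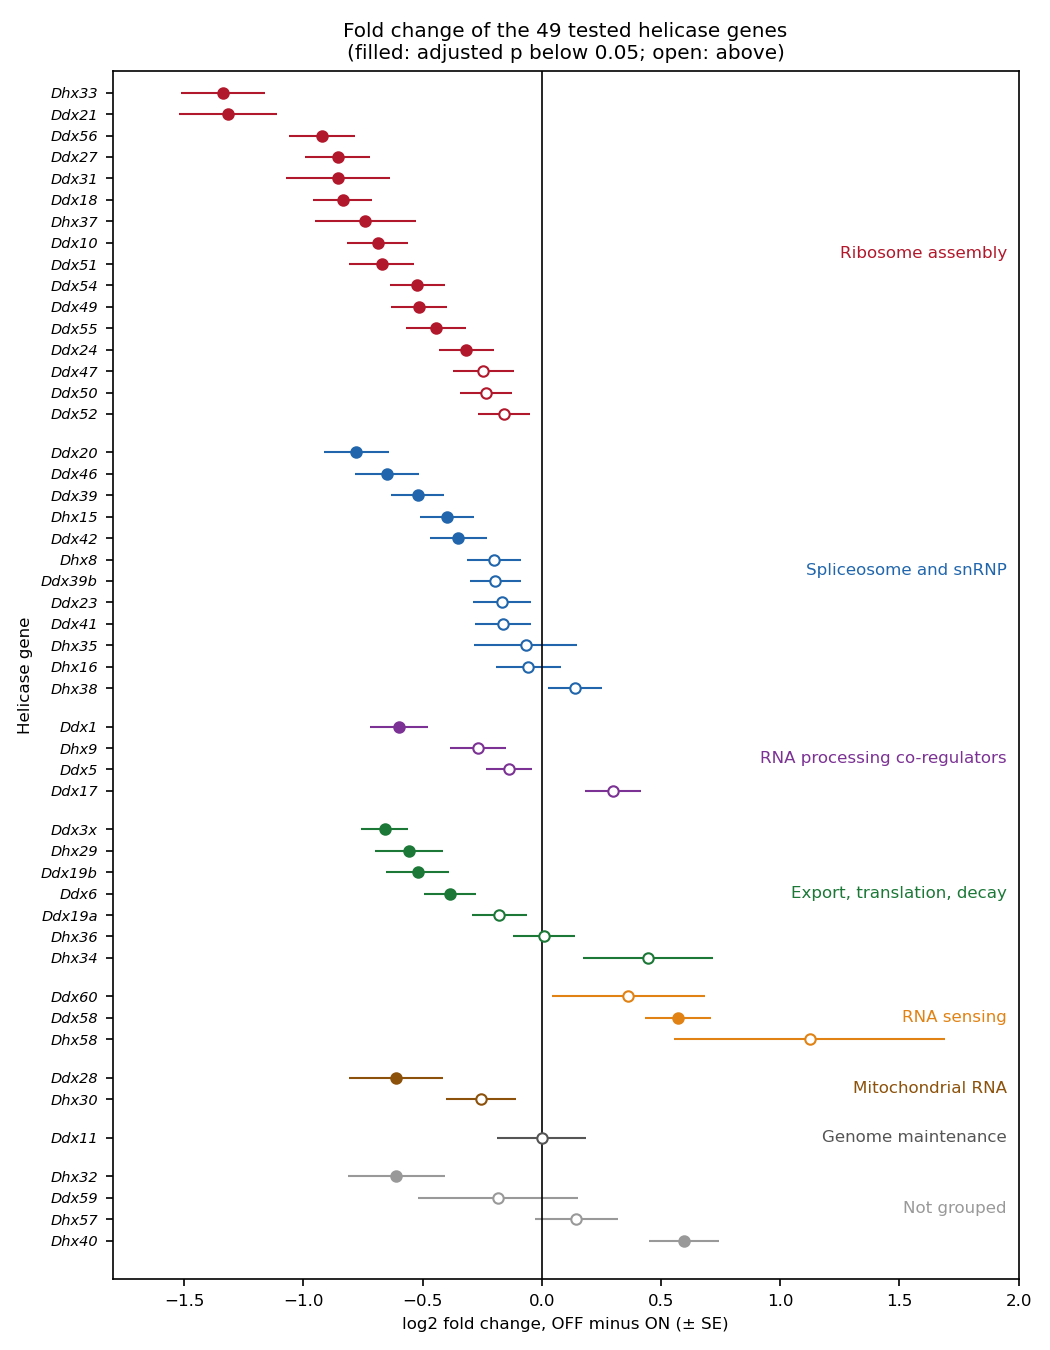
Log2 fold change (OFF minus ON, x axis) with its standard error for each of the 49 tested helicase genes, arranged by known role; filled points passed an adjusted p of 0.05 and open points did not. All 16 ribosome assembly genes lie left of 0, and the RNA sensing genes lie right of it.

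**Figure D2:**
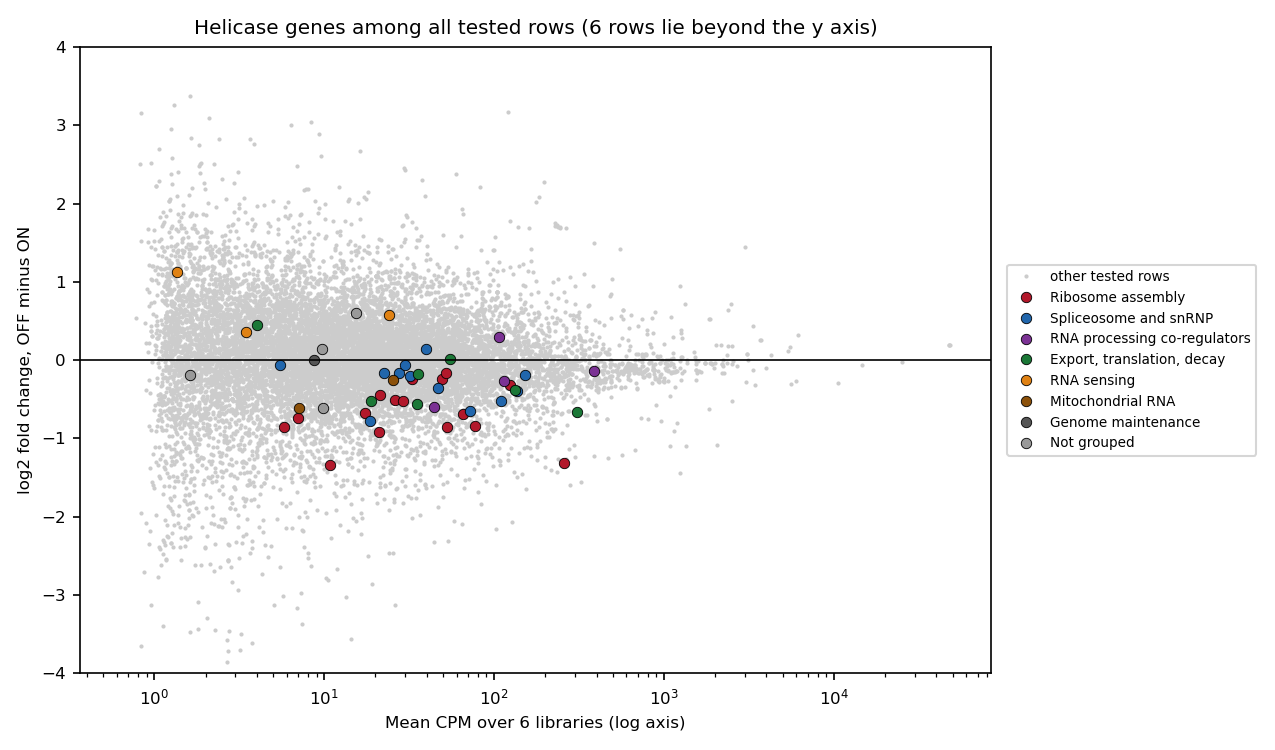
Mean CPM over the 6 libraries (x axis, log scale) against log2 fold change (OFF minus ON, y axis) for all tested rows in grey and the helicase genes in colours by role; 6 rows fall beyond the y axis. Ddx21, at a mean of 258 CPM, lies lowest among the abundant helicase genes at -1.32.

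The helicases of ribosome assembly showed the most uniform pattern: 13 of 16 fell (81.25%, against 17.5% of all tested rows) and none rose. All 16 had a negative fold change (median -0.68, range -1.34 to -0.16). These proteins work on the precursors of the small or the large ribosomal subunit in the nucleolus. Outside this role, 12 of 33 tested members were called lower (36.4%) and 2 higher (6.06%), with a median of -0.18. Summed over the 16 genes, the ON libraries held 1085, 1029 and 1084 CPM and the OFF libraries 733, 627 and 537 CPM. Dhx33, which takes part in transcription of ribosomal RNA genes (chromosome 11, 70984091 to 71004437, minus strand, GRCm38), was read at 14.5, 15.03 and 16.8 CPM in ON but 7.44, 5.46 and 5.39 CPM in OFF. Every OFF value was thus well under the lowest ON value, a 2.53-fold difference (log2 fold change -1.34, SE 0.17, adjusted p = 4.74e-05). Ddx21, a nucleolar helicase that binds ribosomal RNA and small nucleolar RNAs (chromosome 10, 62580251 to 62602281, minus strand), had 369, 352 and 381 CPM in ON but 199.5, 144 and 99.0 CPM in OFF. Its ON libraries were tight and its OFF libraries spread over a wide range, with OFF replicate 3 lowest. The fold change was -1.32 (SE 0.20, adjusted p = 7.71e-04), between -1.60 and -1.09 over 14 alternative settings.

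Ddx56, a factor of large subunit assembly, fell from 28.2, 27.5 and 26.7 CPM to 17.2, 12.9 and 13.3 CPM (log2 fold change -0.92). Ddx27, which acts in the maturation of large subunit RNA, gave 73.4, 65.2 and 64.5 CPM in ON and 45.4, 35.6 and 31.1 CPM in OFF (-0.86). Ddx18, the counterpart of yeast Has1, was at 103, 93.5 and 98.1 CPM in ON and 64.5, 53.7 and 46.9 CPM in OFF (-0.84). None of these genes had overlapping groups, and each kept its call in all 14 alternatives. Ddx31, a further large subunit factor, was lower expressed, with 7.65, 7.97 and 6.82 CPM in ON and 3.67, 5.12 and 3.63 CPM in OFF (-0.85, adjusted p = 0.00682). Dhx37, which releases a small nucleolar RNA from the small subunit precursor, stood at 8.79, 9.80 and 7.69 CPM against 6.33, 5.46 and 3.96 CPM (-0.74, adjusted p = 0.0137). Dropping ON replicate 2 ended this call (adjusted p = 0.0763). For Ddx10, a small subunit factor, the values were 78.7, 80.0 and 84.2 CPM in ON and 57.0, 53.5 and 40.3 CPM in OFF (-0.69). Ddx51, a large subunit factor, had 19.5, 22.4 and 22.0 CPM in ON and 14.4, 12.4 and 13.3 CPM in OFF (-0.67). In these 4 genes, too, the highest OFF library lay below the lowest ON library.

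The other 4 assembly genes that fell did so by less. Ddx54, a large subunit factor, went from 35.5, 33.8 and 33.0 CPM to 25.2, 23.1 and 23.0 CPM (log2 fold change -0.52), and Ddx49, a small subunit factor, from 29.9, 30.4 and 32.1 CPM to 22.2, 21.1 and 21.4 CPM (-0.51). The values of Ddx55, the counterpart of yeast Spb4, were 24.9, 23.5 and 25.6 CPM against 19.1, 18.6 and 16.6 CPM (-0.44). All 3 genes were tight within each group and apart between groups, but Ddx55 did not pass without ON replicate 1 or 3 (adjusted p = 0.0525 and 0.061). Ddx24, at 145, 131 and 139 CPM against 125, 111 and 96.7 CPM, had the smallest called fall (-0.32, adjusted p = 0.0438). It did not pass when any ON library, OFF replicate 2 or OFF replicate 3 was left out (0.0612 to 0.159). Of the last 1000 bases of Ddx49, 751 lie in exons of Homer3 on the opposite strand, a row that was also lower (-0.36, adjusted p = 0.0442). Without a known strand setting their reads cannot be told apart. Ddx54 shares 78 bases of its 3' end with Cfap73, a gene below the filter, and 29 with Gm43579 (-0.44, adjusted p = 0.0218), both on the opposite strand. The members that did not pass were Ddx47 (-0.24, adjusted p = 0.158), Ddx50 (-0.23, adjusted p = 0.116) and Ddx52 (-0.16, adjusted p = 0.284). Ddx47 passed as lower without OFF replicate 3 (-0.37, adjusted p = 0.0141). Among the 13 genes called lower, OFF replicate 1 was the highest OFF library in 12 and OFF replicate 3 the lowest in 10. Leaving out OFF replicate 3, which stands apart on the second principal component, also gave 13 lower, with Ddx47 in place of Ddx24. Leaving out any 1 library gave 11 to 13.

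**Figure D3:**
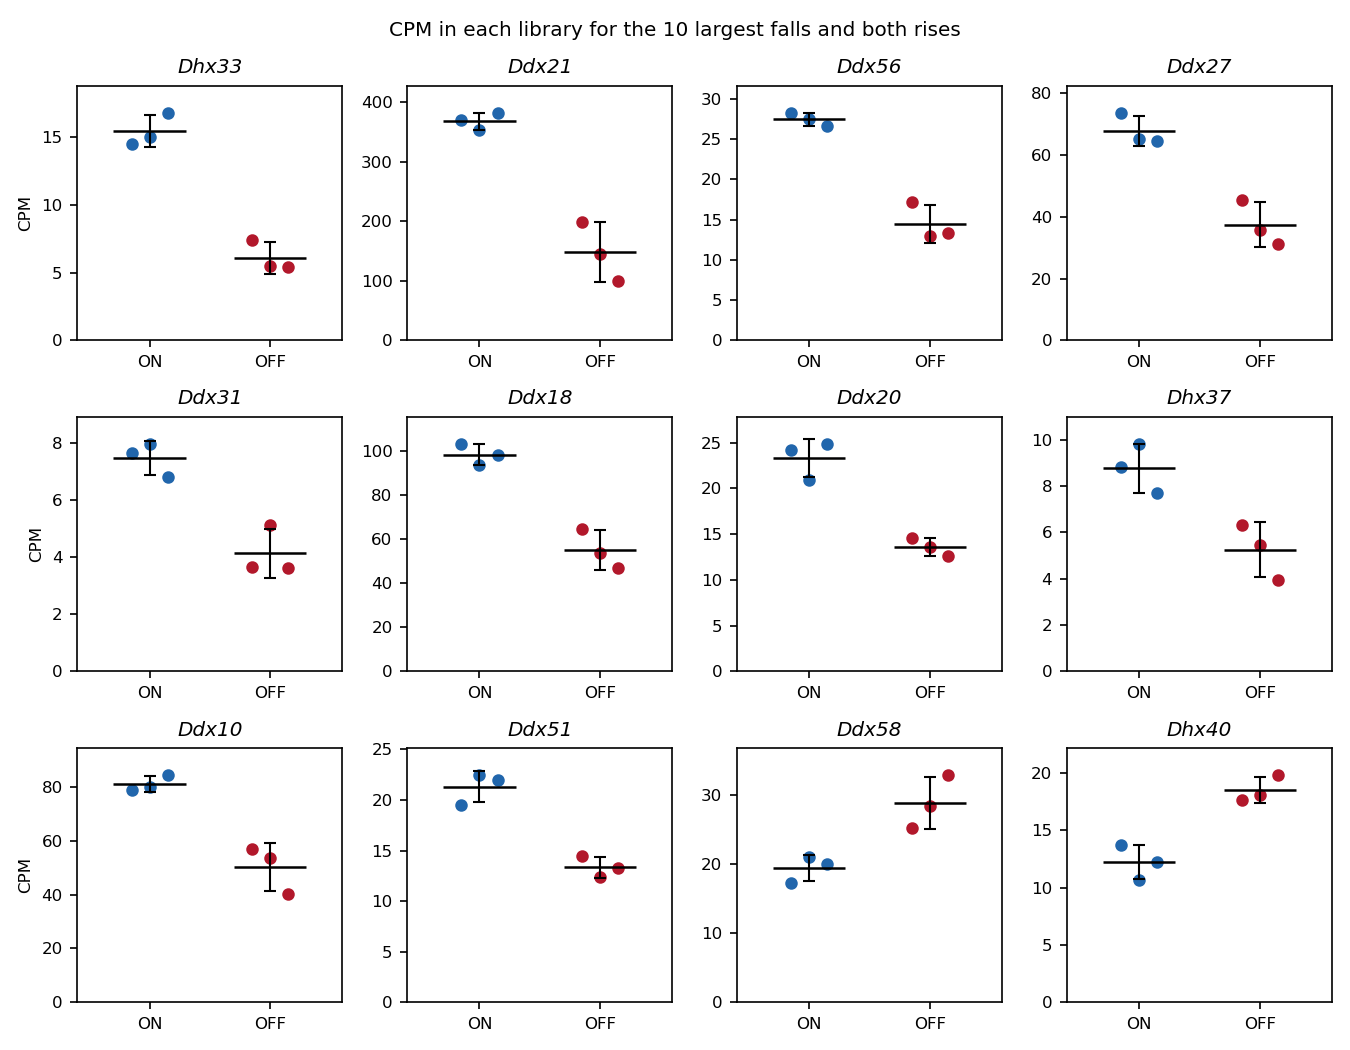
CPM (y axis) in each ON and OFF library for the 10 helicase genes with the largest falls and the 2 that rose; points are libraries, horizontal lines are means and bars are SD (n = 3). The groups do not overlap in any panel, and Ddx21 shows the widest spread within OFF.

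Promoter sequences of the members were searched, whatever their call, for the letters of 3 motifs, as a description. In the RefSeq table (GRCm38.p6), 46 of 52 members had a window of 250 bases before to 50 after a start, 57 windows in all. The E-box CACGTG, bound by MYC and related factors and identical on both strands, occurred in 1 of 18 windows of ribosome assembly genes (5.56%) and 6 of 39 windows of other members (15.4%), against 10.3% of 11107 windows of tested rows and 7.15% of all 32851 windows. Among those 6 were windows of Ddx4 and Ddx25, germ cell genes that were not tested. By call, the E-box was in 2 of 28 windows of members that fell (7.14%) and in 2 of 24 windows of members not called (8.33%). The letters CCGGAAG, the core of ETS factor sites, occurred on either strand in 9 of 18 windows of ribosome assembly genes (50%) and in 12 of 39 other windows (30.8%), against 19% of windows of tested rows and 8.86% of all windows. By call, they were in 8 of 28 windows of members that fell (28.6%) and in 13 of 24 windows of members not called (54.2%). These are counts of windows, and windows of the same gene can overlap. The same ETS letters of Ddx49, and likewise of Dhx34, were counted more than once. The ATF4-type letters TGATGNAA were in no window of a member, against 2.34% of windows of tested rows. A window that holds the letters is not thereby a bound site.

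The following upstream stretches, 5′ to 3′ on the gene's strand with the matched letters in capitals, show the E-box of the gene with the largest fall (Dhx33), of a gene that rose (Dhx40) and of the most abundant, uncalled member (Ddx5), then the ETS letters of 2 genes that fell (Dhx37, Ddx54, the latter on the opposite strand) and 1 that did not pass (Ddx50). The stretches span chr11:71004442-71004487, chr11:86807755-86807800, chr11:106788912-106788957, chr5:125434086-125434132, chr5:120613090-120613129 and chr10:62651219-62651251.
Dhx33: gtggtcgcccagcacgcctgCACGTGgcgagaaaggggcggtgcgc
Dhx40: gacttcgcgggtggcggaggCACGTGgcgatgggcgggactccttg
Ddx5: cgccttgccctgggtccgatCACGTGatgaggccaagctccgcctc
Dhx37: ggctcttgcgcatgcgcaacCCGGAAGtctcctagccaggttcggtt
Ddx54: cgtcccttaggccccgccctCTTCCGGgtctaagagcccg
Ddx50: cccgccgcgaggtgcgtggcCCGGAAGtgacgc
The E-box thus stands upstream of genes that fell, rose and did not pass, here at 35, 120 and 30 bases before the start. The ETS letters stand upstream of genes that fell and that did not pass, here at 64, 20 and 13 bases. Only 2 genes rose (Ddx58 and Dhx40), with 1 window each. Neither window held the ETS letters, but these are too few windows for a comparison.

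Among the helicases of the spliceosome and of snRNP assembly, 5 of 12 fell (41.7%, against 17.5% of all tested rows) and none rose (median -0.20). In 11 of 12 the fold change was negative, and in 9 (75%) all OFF libraries lay below all ON libraries, against 24.5% of all tested rows. The largest fall was in Ddx20, also known as Gemin3, a subunit of the SMN complex that loads Sm proteins onto spliceosomal RNAs (chromosome 3, 105678270 to 105687574, minus strand). Ddx20 was at 24.2, 21.0 and 24.8 CPM in ON and 14.6, 13.6 and 12.7 CPM in OFF (log2 fold change -0.78, SE 0.14, adjusted p = 5.08e-04). Its ON and OFF libraries were widely separated. Ddx46, the counterpart of yeast Prp5, which acts when the U2 snRNP joins the intron, gave 87.0, 84.5 and 90.8 CPM against 61.9, 62.4 and 43.1 CPM (-0.65, adjusted p = 0.0018). Ddx39, a close relative of the export helicase Ddx39b, gave 131, 131 and 126 CPM against 96.0, 78.4 and 96.5 CPM (-0.52, adjusted p = 0.00227). The last 1000 bases of Ddx39 share 137 with Adgre5 on the opposite strand, whose row moved the other way (0.56, adjusted p = 0.00233). Dhx15, which takes spliceosomes apart and also acts in ribosome assembly, stood at 150, 158 and 155 CPM in ON and 129, 121 and 101 CPM in OFF (-0.40, adjusted p = 0.0131). Dhx15 did not pass without ON replicate 2 or 3 (0.0666 and 0.0535). Ddx42, a partner of the U2 snRNP, had 50.5, 55.1 and 51.6 CPM against 46.7, 40.8 and 36.0 CPM (-0.35, adjusted p = 0.0334), and passed without OFF replicate 1 but not when any other single library was left out (0.0559 to 0.139). Without ON replicate 2 or ON replicate 3 the count was 3 of 12.

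The group members that did not pass include helicases of the splicing cycle. Dhx8, Ddx23, Ddx41, Dhx35, Dhx16 and Dhx38 gave log2 fold changes of -0.20, -0.17, -0.16, -0.07, -0.06 and 0.14, with adjusted p from 0.183 to 0.839. Dhx16, which activates the spliceosome for the first step, was at 28.3, 32.0 and 31.5 CPM in ON and 26.8, 26.2 and 35.3 CPM in OFF, and Dhx38, which acts before the second step, at 37.0, 38.5 and 38.3 CPM against 45.8, 41.5 and 38.2 CPM. Both genes overlapped between groups. Ddx39b, the helicase of the TREX complex that couples splicing to export, was among the most abundant members, with 155, 173 and 157 CPM in ON and 141, 130 and 153 CPM in OFF. Its groups did not overlap, but the fold change of -0.19 did not pass (adjusted p = 0.177), except without OFF replicate 3 (-0.25, adjusted p = 0.033).

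Of 7 helicases of mRNA export, translation and decay, 4 fell (57.1%, against 17.5% of all tested rows) and none rose (median -0.39). Ddx3x, which helps ribosomes to start on structured mRNAs (chromosome X, 13280970 to 13294052, plus strand), was the second most abundant member at 364, 396 and 368 CPM in ON and fell to 251, 239 and 225 CPM in OFF. The difference was 1.58-fold (log2 fold change -0.66, SE 0.10, adjusted p = 1.59e-04), and no OFF library came near the ON range. Dhx29, which aids scanning by the small subunit, gave 41.3, 38.5 and 46.0 CPM against 35.2, 24.95 and 25.3 CPM (-0.56, adjusted p = 0.00715, or 0.0525 without OFF replicate 2). Ddx6, which represses translation and promotes decapping in P-bodies, gave 139, 162 and 152 CPM against 119, 121 and 106 CPM (-0.39, adjusted p = 0.0125, or 0.0875 and 0.0546 without ON replicate 2 or 3). Ddx19b, an mRNA export helicase, gave 21.4, 23.6 and 21.2 CPM against 16.8, 15.3 and 14.1 CPM (-0.52, adjusted p = 0.00717). The groups of all 4 genes were apart. Dhx36, which unwinds G-quadruplexes, was the member of at least 10 CPM with the smallest change, at 59.6, 53.0 and 51.5 CPM in ON and 59.6, 61.2 and 44.6 CPM in OFF (0.01, adjusted p = 0.961). Ddx19a gave -0.18 (adjusted p = 0.259) and Dhx34, a factor of nonsense-mediated decay at a mean of 4.04 CPM, gave 0.45 (adjusted p = 0.227).

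Among co-regulators of transcription and RNA processing, 1 of 4 fell (25%, near the 17.5% of all tested rows). Ddx1, a subunit of the tRNA ligase complex, fell from 54.9, 50.8 and 54.1 CPM to 40.6, 32.8 and 32.1 CPM (-0.60, adjusted p = 0.00144). Ddx5, a co-activator and splicing regulator, was the most abundant member, at 405, 405 and 410 CPM in ON and 385, 377 and 348 CPM in OFF (-0.14, adjusted p = 0.283). Its values did not overlap between groups, but the difference did not pass. Ddx17, its close relative, was higher in every OFF library, with 96.6, 92.8 and 97.4 CPM in ON and 99.6, 123 and 130 CPM in OFF. It did not pass (0.30, adjusted p = 0.0589), but passed as higher without OFF replicate 1 (0.41, adjusted p = 0.00482) and in 3 other settings (0.0401 to 0.0468). Dhx9, RNA helicase A, gave -0.27 (adjusted p = 0.0916), or -0.33 (0.0331) without OFF replicate 1.

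Of the 3 RNA sensing genes 1 rose (33.3%, against 17.3% of all tested rows) and none fell. All 3 had a positive fold change, but only Ddx58 passed. Ifih1, listed below both with the helicases of other names and with the RNA sensing partners, went the other way without passing (-0.38, adjusted p = 0.0667). All its OFF libraries lay below all its ON libraries. Ddx58, which encodes the viral RNA sensor RIG-I (chromosome 4, 40203773 to 40239828, minus strand), had 17.2, 21.0 and 19.97 CPM in ON and 25.2, 28.4 and 32.8 CPM in OFF. All OFF libraries were above all ON libraries, a 1.49-fold rise (log2 fold change 0.57, SE 0.14, adjusted p = 0.00503) that held in all 14 alternatives. Dhx58, which encodes the related regulator LGP2, was near the limit of detection, at 1.599, 0.57 and 0.37 CPM in ON and 0.67, 2.23 and 2.75 CPM in OFF. It did not pass (1.123, SE 0.57, adjusted p = 0.145), although it did without OFF replicate 1 (1.52, adjusted p = 0.0157) and, at the edge of the threshold, without ON replicate 1 (1.96, adjusted p = 0.05). The interferon-induced Ddx60 gave 0.36 (adjusted p = 0.41) at a mean of 3.45 CPM. The other called rise was in Dhx40, a DEAH helicase of less well known function (chromosome 11, 86768846 to 86807746, minus strand), with 13.7, 10.7 and 12.3 CPM in ON and 17.7, 18.0 and 19.8 CPM in OFF (0.60, SE 0.15, adjusted p = 0.00523). Its groups did not overlap, and it too passed in all 14 alternatives.

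Among the remaining members, Ddx28, which assembles the mitochondrial large ribosomal subunit, fell at a low level (log2 fold change -0.61, adjusted p = 0.0252), but did not pass without ON replicate 1 or 2 (0.15 and 0.0594) or without OFF replicate 2 (0.0586). Dhx30, also of mitochondrial RNA granules, gave -0.25 (adjusted p = 0.2), or -0.41 (0.0283) without OFF replicate 1. Dhx32 fell (-0.61, adjusted p = 0.0304), but did not pass once any ON library or OFF replicate 1 was left out (0.0768 to 0.0977). Of its last 1000 bases, 204 lie in exons of Bccip on the other strand, itself lower (-0.60, adjusted p = 0.0215). Ddx11, a DNA helicase of sister chromatid cohesion, had means of 8.73 CPM in ON and 8.72 CPM in OFF. Ddx59 and Dhx57 gave -0.18 and 0.14 (adjusted p = 0.714 and 0.556). The germ cell genes Ddx4, Ddx25 and Ddx43 had at most 5 counts in any library and were not tested.

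Related members were compared by the ratio of their counts within a library, which no scaling of libraries changes. There were 5 pairs, chosen after the values were seen, and with 3 against 3 libraries the exact permutation test (two-sided) cannot give a p below 0.1. Ddx21 and Ddx50 are neighbours on chromosome 10 and encode related nucleolar proteins. The ratio was 6.87, 6.94 and 6.78 in ON and 4.13, 3.09 and 2.38 in OFF, so every OFF ratio lay well below the ON ratios (exact permutation p = 0.1, 0.125 adjusted over 5 pairs). Ddx39 to Ddx39b gave 0.846, 0.760 and 0.802 in ON and 0.679, 0.605 and 0.631 in OFF. Ddx17 to Ddx5 gave 0.238, 0.229 and 0.237 in ON and 0.259, 0.327 and 0.374 in OFF. Ddx19b to Ddx19a, adjacent genes of very similar sequence on chromosome 8 whose reads may be hard to assign, gave 0.595, 0.645 and 0.524 in ON and 0.460, 0.477 and 0.449 in OFF. In these 3 pairs the groups were also apart, with the same exact permutation p of 0.1. Ddx58 to Dhx58 overlapped between groups (exact permutation p = 0.7).

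**Figure D4:**
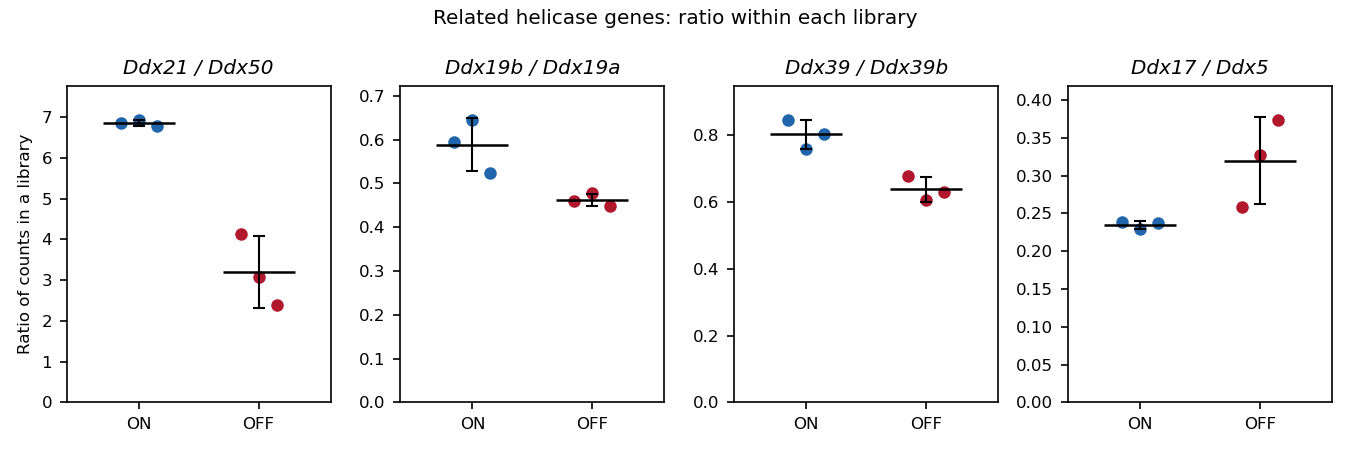
Ratio of the counts of 2 related helicase genes (y axis) in each ON and OFF library for 4 pairs; points are libraries, lines are means and bars are SD (n = 3). The Ddx21 to Ddx50 ratio drops from a mean of 6.86 to 3.2, and the Ddx17 to Ddx5 ratio is higher in every OFF library.

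Genes that work with these helicases were examined as lists by function. Helicases of the same superfamily with other names had 7 of 17 members lower (41.2%, against 17.5% of all tested rows). None was higher, and the median log2 fold change was -0.35. The translation initiation helicase Eif4a1 fell from a mean of 273 to 138 CPM (-0.99, adjusted p = 7.63e-06), whereas its relative Eif4a2 gave -0.04 (adjusted p = 0.835). The nonsense-mediated decay helicase Upf1 (-0.53) and the exon junction helicase Eif4a3 (-0.57) also fell. Leaving out ON replicate 2 or ON replicate 3 gave 4 lower in this list. Of 17 tested proteins with MIF4G domains and other helicase partners, mostly of DEAD box members, 5 fell and 1 rose (median -0.23). These shares were 29.4% and 5.88%, against 17.5% and 17.3% of all tested rows. The 1 that rose was Pdcd4, an inhibitor of EIF4A, from a mean of 96.3 to 232 CPM (1.27, adjusted p = 1.49e-05), while the scaffold proteins Eif4g2 (-0.75) and Eif4g1 (-0.70) fell, as did the ribosome assembly factor Nol6 (-0.85) and the DHX37 activator Utp14a (-0.74). Without OFF replicate 1, 8 of these partners were lower.

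G-patch proteins, which switch on DEAH box helicases, had 5 of 18 members lower and 2 higher (median -0.01). These shares were 27.8% and 11.1%, not far from the 17.5% and 17.3% of all tested rows. Those that fell most were Gpatch4 (58.8 to 19.7 CPM, -1.57), Nkrf (-1.23) and Pinx1 (-0.78), nucleolar partners of DHX15, and the splicing partner Rbm17 gave -0.60. The rises of Gpatch2 (0.40, adjusted p = 0.0482) and Rbm5 (0.30, adjusted p = 0.0459) did not pass without any ON library, OFF replicate 1 or OFF replicate 2, with DESeq2, with no filter or with total-count scaling, each of which left 0 higher. In the SMN complex, the partners of Ddx20, 6 of 8 fell (75%, against 17.5% of all tested rows) and none rose (median -0.78). Among those that fell were Gemin4 (9.83 to 2.77 CPM, -1.82), Gemin5 (-1.25) and Strap (-0.82). With only genes of at least 10 CPM tested, the count was 3. That setting left out Gemin2, Gemin4 and Gemin6 (means of 5.04, 6.3 and 6.42 CPM), which were among the 6 that fell. Of 7 tested partners of Ddx1 in the tRNA ligase complex 4 fell (57.1%), Fam98a (-0.83) by most, and none rose (median -0.32). Only 1 was lower without ON replicate 2 and 2 without ON replicate 3.

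The exon junction and TREX complexes, which include partners of Ddx39b, had 10 of 18 members lower (55.6%, against 17.5% of all tested rows). None was higher (median -0.34). Magohb (-0.93), Thoc1 (-0.59) and Thoc7 (-0.54) had the smallest p. The count was 5 without ON replicate 1 or OFF replicate 2 and 6 without ON replicate 2 or ON replicate 3. Of 13 tested partners and targets of the RNA sensors, 3 were lower and 3 higher (23.1% each, near the 17.5% and 17.3% of all tested rows; median 0.05, mean -0.16). Rnf135, a ubiquitin ligase that activates RIG-I, rose by 0.61 (adjusted p = 0.017), as did the interferon signalling factor Stat2 (0.57). In the other direction, the ubiquitin ligase Trim25 (-0.45) and the interferon-stimulated genes Isg15 (5.66 to 1.92 CPM, -1.55) and Ifit1 (2.21 to 0.74 CPM, -1.55) fell. Of this list, 1 was lower without ON replicate 2 or ON replicate 3, and 5 without OFF replicate 3 or with no filter. The ON and OFF libraries of Ifit1 overlapped, as did those of Trim25.

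**Figure D5:**
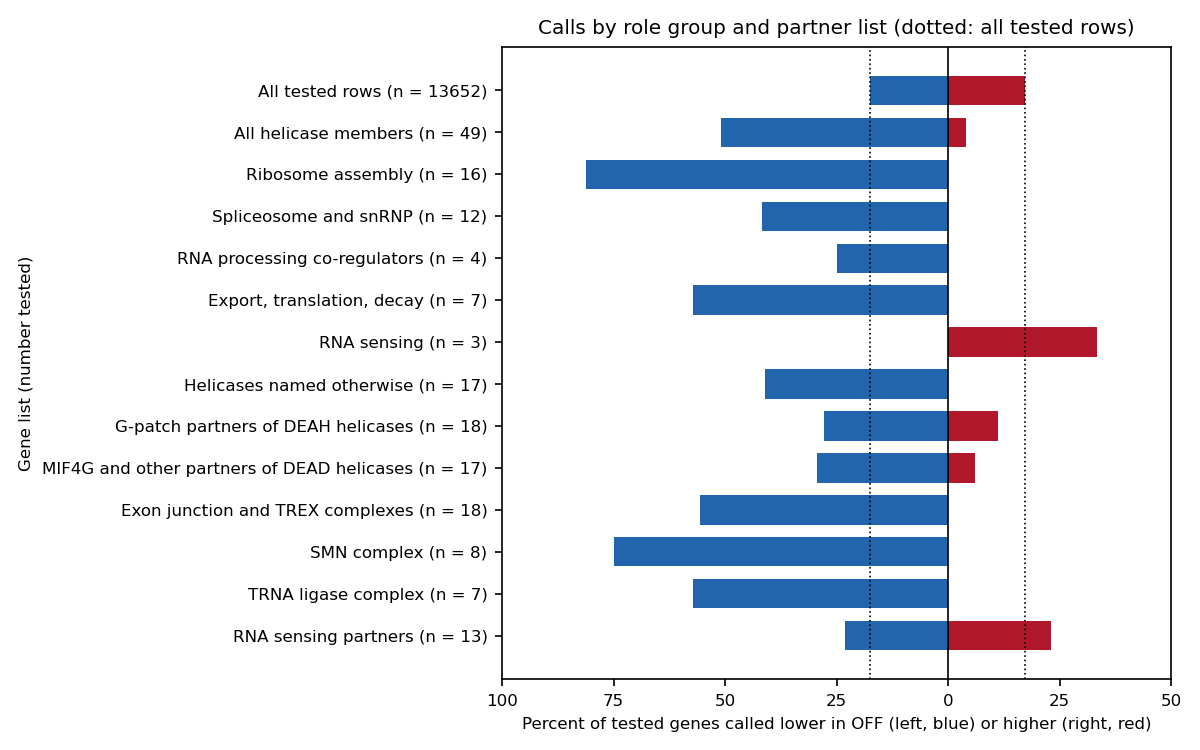
Percentage of tested genes (x axis) called lower (left, blue) or higher (right, red) in OFF, for all tested rows, all helicase members, 5 role groups and 7 partner lists, with the number tested in brackets; dotted lines mark all tested rows (17.5% lower, 17.3% higher). The ribosome assembly helicases and the SMN complex reach the largest shares lower, with 13 of 16 and 6 of 8.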

How the data were processed

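Counts per gene for 6 mice (3 ON, 3 OFF) were those the authors deposited; per the submitters' processing notes the tools included featureCounts (Subread 1.6.3), HISAT2 2.0.4, limma 3.42.2 and cutadapt 1.9.1, with build mm10; how strand and multi-mapping reads were handled is not stated there. Per the labels' protocols, libraries were made with a Lexogen QuantSeq 3' kit, so a count reads the 3' end. The authors' deposited log2 values (12287 rows), whose filter is not given, served as an alternative. Of 54838 rows, 1105 had no name (0.145% to 0.172% of counts) and were left out.

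In R 4.3.3, edgeR 4.0.16 tested OFF against ON (filterByExpr, minimum count 10, minimum total 15; TMM; glmQLFit and glmQLFTest; no covariate; Benjamini-Hochberg over 13652 rows at 0.05). Fold changes are log2, OFF minus ON; SE is the fold change over the square root of F; CPM uses TMM-scaled library sizes. Replicates differed by more than sampling noise (chi-square per degree of freedom 2.985 to 39.5). A limit of 3 counts is at most 0.372 CPM, and covers counting error only. DESeq2 1.42.0 and limma 3.58.1 were alternatives; scripts were tested on simulated data. Coordinates are GENCODE M21 (GRCm38); promoter windows are RefSeq's.

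Members, role groups, partner lists and the naming rule (10 largest falls, all rises, the 6 most abundant, the 4 smallest changes, called members of 3 roles; in lists, up to 3 called genes of smallest p) were chosen with earlier results of these data known. Some partner genes (Eif4a2, Eif4g1, Pinx1) and the pairs and motifs were chosen after their values were seen. Results for some listed genes are not reported here.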

Additional observations from a re-analysis of the deposited data

How the results depend on the processing

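Under 14 other settings, 18 to 26 helicase genes were lower in OFF, against 25, and 2 to 4 higher, against 2. The 4 higher came without OFF replicate 1; leaving out each library in turn gave 18 to 26 lower and 2 to 4 higher. Of the 25 genes called lower, 16 kept their call in every setting that tested them, as did both that rose. With a replicate block, 24 were lower and 2 higher. The deviations of same-numbered mice from their group means had correlations of 0.03, -0.08 and -0.05. With 3 mice in each group these values cannot exclude a pairing, and the labels do not state one. Total-count scaling, chosen after seeing the data, gave 25 lower and 2 higher. Sign changes occurred only in 4 uncalled genes near 0. Ddx11 was at 0.0188 without ribosomal RNA locus rows, 0.000579 with total-count scaling, and 0.0125 to 0.103 without ON replicate 2 (0.0125) or 3 (0.0508) or OFF replicate 2 (0.0477) or 3 (0.103), and ranged from -0.16 over the libraries left out. Dhx16 was at 0.0064 and 0.0212 without OFF replicate 1 or 2 (lowest -0.205), and Dhx35 at 0.0206 and 0.0464 without ON replicate 2 or OFF replicate 3 (lowest -0.166). Dhx36 was at -0.00832 with no filter on low counts and at -0.0121, -0.0366, -0.0506 and -0.0699 without ON replicate 2 or 3 or OFF replicate 1 or 2 (highest 0.147). Some calls were lost to a change of method with all libraries kept. Ddx24 lost its call with the replicate block (adjusted p = 0.0613) and with only genes of at least 10 CPM (0.0608). It also lost it with limma on the authors' log2 values (0.0715) and without ribosomal RNA locus rows (0.0593). Ddx42 lost its call with the DESeq2 test (0.0548) and limma (0.0594), and Ddx28 (0.087) and Dhx32 (0.0679) with the DESeq2 test. The cause of these losses was not tested. Depth limits what can be said of Dhx58 and the untested germ cell genes.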
